A study of Mus musculus with 32 samples.

Results

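Messenger RNA levels of 38 stress genes were followed in mouse atherosclerotic arteries and in cultured smooth muscle cells with and without Oct4. The genes were taken by name from 23284 genes in each of 2 count tables. The list was drawn up with earlier results of these data known. All 38 were found and passed the filter on low counts in both tables. They fall into 21 endoplasmic reticulum (ER) folding genes of the unfolded protein response and 17 genes of the ATF4 arm. The class called folding genes pools 10 folding enzymes and chaperones, 7 degradation genes and 4 genes of the stress sensors and the transcription factor Xbp1. The lesion table holds 8 libraries from the brachiocephalic arteries of C57BL/6 mice kept on a Western diet for 18 weeks, from 4 animals labelled Oct4 -/- (KO) and 4 labelled wild type (WT). The culture table holds 24 libraries from 1 aortic smooth muscle cell line per genotype (C57BL/6, WT or Oct4 -/-). POVPC, an oxidized phospholipid of the kind found in oxidized low density lipoprotein, or vehicle was given to either line, at normal oxygen (normoxia) or at 1% oxygen (hypoxia), which makes 8 groups of 3 libraries. The labels give neither the age of the animals nor the cells in which the gene was deleted, nor the dose and time of POVPC and hypoxia. The published study is known to have used a Myh11-driven Cre on an Apoe-deficient background, so that Oct4 was lost in smooth muscle cells and the control animals lacked Apoe too.

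When unfolded protein collects in the ER, 3 membrane sensors respond: IRE1 (gene Ern1), which splices the Xbp1 message, ATF6 (Atf6), which is cut to release a transcription factor, and PERK (Eif2ak3), a kinase of the translation factor eIF2. Spliced XBP1 and cut ATF6 raise chaperones, disulfide isomerases and the machinery that sends misfolded protein back out for degradation. Phosphorylated eIF2 slows translation as a whole but favours that of ATF4, which raises genes of amino acid synthesis, further transcription factors such as CHOP (Ddit3), and feedback inhibitors. Kinases that sense amino acid shortage, viral RNA or heme also phosphorylate eIF2, so the ATF4 arm can act without ER stress. The gene counts used here measure RNA levels only, not splicing of Xbp1, cutting of ATF6 or translation of ATF4.

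The promoters of the genes that the results turn on are shown first, because the arms are read by factors with different recognition letters. Promoter sequences came from RefSeq (build GRCm38.p6, 250 bases before to 50 after each start), in which 32 of the 38 genes were matched; Atf6, Cth, Derl1, Eif4ebp1, Hyou1 and Manf had no entry. Both strands were searched for the ER stress response element, spelled CCAAT, then 9 bases of any kind, then CCACG, which ATF6 reads together with NF-Y. It stood in 6 of the 17 matched ER folding genes (Calr, Derl3, Canx, Pdia6, Creld2 and Syvn1), in 0 of the 15 matched ATF4 genes and in 0.119% of all 32851 promoter windows. The C/EBP-ATF response element, spelled TGATGNAA, which ATF4 reads with a C/EBP partner, stood in 7 of the 15 ATF4 genes (Atf3, Chac1, Trib3, Asns, Nupr1, Pycr1 and Vldlr), in 1 of the 17 ER folding genes (Herpud1) and in 3.97% of all windows. The unfolded protein response element TGACGTGG was in none of the 32 genes (0.676% of all windows), and the cyclic AMP response element TGACGTCA was in Ppp1r15a alone (1.79%). No match says only that these letters are not in that window, and a match is a description of the sequence, not a measured binding site.

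The following stretches read 5′ to 3′ on the strand of each gene, with the matched letters in capitals. The first 4 are the whole 250 bases before the start of Pdia6 (chr12:17266339-17266588, strand +) and Canx (chr11:50325674-50325923, strand -), both with an ER stress response element, and of Nupr1 (chr7:126625471-126625720, strand -) and Asns (chr6:7693210-7693459, strand -), both with a C/EBP-ATF response element.
Pdia6: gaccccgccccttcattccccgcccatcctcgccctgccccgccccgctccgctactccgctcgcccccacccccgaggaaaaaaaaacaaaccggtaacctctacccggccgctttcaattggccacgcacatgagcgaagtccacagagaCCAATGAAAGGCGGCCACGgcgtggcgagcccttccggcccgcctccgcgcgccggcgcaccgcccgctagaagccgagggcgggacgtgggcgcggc
Canx: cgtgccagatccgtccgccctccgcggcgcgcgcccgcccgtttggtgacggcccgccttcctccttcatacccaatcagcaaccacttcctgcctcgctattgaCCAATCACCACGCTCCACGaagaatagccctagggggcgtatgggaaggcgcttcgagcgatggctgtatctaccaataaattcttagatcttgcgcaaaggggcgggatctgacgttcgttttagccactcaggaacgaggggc
Nupr1: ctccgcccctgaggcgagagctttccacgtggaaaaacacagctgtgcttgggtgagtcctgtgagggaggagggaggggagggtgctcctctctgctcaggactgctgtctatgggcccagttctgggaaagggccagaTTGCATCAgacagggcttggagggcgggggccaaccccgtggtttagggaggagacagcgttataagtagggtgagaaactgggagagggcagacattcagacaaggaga
Asns: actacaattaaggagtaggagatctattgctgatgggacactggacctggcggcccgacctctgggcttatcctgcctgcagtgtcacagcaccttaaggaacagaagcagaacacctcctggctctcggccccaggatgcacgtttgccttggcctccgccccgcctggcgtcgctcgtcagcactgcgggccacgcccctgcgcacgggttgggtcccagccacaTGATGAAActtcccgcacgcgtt
The match in Pdia6 began 98 bases and that in Canx 145 bases before the start, and those in Nupr1 and Asns began 110 and 23 bases before it.

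Shorter stretches around the match are given for Creld2 (chr15:88819500-88819558, strand +) and Syvn1 (chr19:6046512-6046570, strand +), which carry the ER stress response element, and for Trib3 (chr2:152344028-152344057, strand -), Chac1 (chr2:119351029-119351076, strand +), Atf3 (chr1:191183416-191183463, strand -), Herpud1 (chr8:94386297-94386344, strand +) and Pycr1 (chr11:120643824-120643871, strand -), which carry the C/EBP-ATF response element. They are shown because genes with the same element did not all move alike in hypoxia: Pycr1 fell in 3 of the 4 settings where Trib3, Chac1, Atf3 and Herpud1 rose in all 4, and Creld2 fell in WT cells while Syvn1 rose in 3 of the 4. Vldlr, which also carries the C/EBP-ATF response element and is not shown, fell in 3 of the 4 and rose in WT cells under POVPC.
Creld2: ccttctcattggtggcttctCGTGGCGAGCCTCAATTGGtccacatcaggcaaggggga
Syvn1: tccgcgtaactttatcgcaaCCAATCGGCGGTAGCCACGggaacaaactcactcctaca
Trib3: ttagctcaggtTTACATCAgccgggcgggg
Chac1: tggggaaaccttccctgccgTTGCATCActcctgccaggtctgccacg
Atf3: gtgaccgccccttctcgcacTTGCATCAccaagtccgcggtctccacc
Herpud1: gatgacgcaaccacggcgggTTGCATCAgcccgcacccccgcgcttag
Pycr1: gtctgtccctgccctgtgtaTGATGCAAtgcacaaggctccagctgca
The Trib3 match lies 15 bases after the start, and the other 6 lie before it.

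Lesion libraries held 6526099 to 11137414 counts and culture libraries 8063121 to 30231799. Multimapping alignments per assigned one ranged from 0.743 to 9.24 in culture. The RNase P RNA gene Rpph1 took 1.15% to 14.2% of counts there. WT POVPC normoxia (0.743 to 1.20 and 1.38% to 2.92%) lay below WT vehicle normoxia (1.30 to 1.96 and 3.39% to 4.55%). It also lay below WT POVPC hypoxia (1.56 to 9.24 and 3.69% to 8.08%). In every other compared pair of culture groups both ranges overlapped. Their part in the results was not tested. Levels are CPM, that is, counts divided by each library's total and TMM factor, given per library or as mean ± SD, and changes are log2 fold changes ± standard error with a false discovery rate (FDR) from edgeR. A gene rose, fell or was called where the FDR over all tested genes (14993 in lesions, 14496 in culture) was under 0.05. Pou5f1, which encodes Oct4, had 0 to 3 counts in every library, so its level cannot check the genotype labels. The labels do not say whether the 3 libraries of a culture group came from separate cultures, so p-values measure only the spread between these libraries. With 1 line per genotype, the deletion and the line cannot be told apart. The third KO vehicle normoxia library stood apart: across all tested genes, with log2 levels centred on the mean of each gene, its closest library was KO POVPC normoxia 1 (r = 0.953). It correlated at 0.807 and 0.867 with the others of its own group, which correlated at 0.917 with each other. The ribosomal precursor Rn45s took 8.02% of its counts, against 1.59% and 1.29% in the others of its group. Rn45s took more in WT POVPC normoxia 1 and 3 (9.355% and 11.1%) and KO POVPC hypoxia 1 (8.31%). KO vehicle normoxia 1 and 2 had 3.88 and 2.84 multimapping alignments per assigned one, and Rpph1 at 6.91% and 4.23%. KO vehicle normoxia 3 had 0.793 and 1.15%, and the KO POVPC normoxia libraries 0.774 to 1.47 and 1.26% to 2.89%. Which of these libraries is typical of the group was not tested. Each count of the 38 genes that uses the KO vehicle normoxia group is therefore given with and without KO vehicle normoxia 3. The share of all tested genes called is given likewise (14733 genes were tested without that library). Every gene named with its statistics in those comparisons kept its call without that library unless stated. The fits without it keep KO vehicle normoxia 1 and 2. In lesions, KO animal 4 and WT animal 1 lay apart on the first and second principal components.

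In the mm9 build used for counting, genes of the ER arm such as Xbp1 (chr11:5420970-5425875) and P4hb (chr11:120421618-120434250) and of the ATF4 arm such as Atf4 (chr15:80085614-80087971), Trib3 (chr2:152163161-152169796), Nupr1 (chr7:133766760-133768984) and Asns (chr6:7625171-7643182) lie on several chromosomes, and counts are summed over all their exons, UTRs included.

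Per kilobase of exon, the stress genes spanned 3 orders of magnitude. P4hb, the disulfide isomerase that is also a subunit of collagen prolyl 4-hydroxylase, led in culture with a mean over all libraries of 1087 CPM per kb. Nupr1, a small stress-induced nuclear protein (484.5), the ER chaperones Calr (474.2) and Canx (391) and the transcription factor Atf4 (257) followed. That order pools all 8 groups: by group mean Nupr1 was at 55.1 to 138 CPM per kb in normoxia, under Calr (405 to 514) and Canx (209 to 405), and at 826 to 907 in hypoxia. Pycr1, Cth and Derl3 closed the order at 1.401, 0.944 and 0.850 CPM per kb. In lesions Calr (291), Nupr1 (214), P4hb (182) and Canx (163) were the 4 highest and Derl3 (0.930) was the lowest. Derl3, a derlin known from secretory cells, stayed between 0.547 and 1.62 CPM in culture and was called in none of the 16 culture comparisons.

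The first comparison asked what 1% oxygen did to these genes in each line and treatment. The ATF4 arm rose broadly and the folding genes split. In WT cells under vehicle, 13 of the 17 ATF4 genes rose and 2 fell, with a median log2 change of 1.20, and 11 of the 21 ER folding genes rose and 6 fell, with a median of 0.28. The median over all genes was -0.03. Within the folding class, the 10 enzymes and chaperones gave 4 up and 5 down (median -0.105). The sensor genes with Xbp1 gave 3 up and 0 down (median 0.364) and the degradation genes 4 up and 1 down (median 0.30). Hypoxia changed most of the transcriptome, with 68.1% of tested genes called (32.8% higher and 35.3% lower), so a call alone sets no gene of the 38 apart from the rest. In WT cells under POVPC the counts were 14 up and 1 down in the ATF4 arm (median 1.17) and 5 up and 8 down among folding genes (median -0.10), with 66.1% of genes called (31.8% higher and 34.3% lower). KO cells under vehicle gave 10 up and 4 down against 5 up and 8 down, with medians of 1.43 and -0.10 and 65.4% of genes called (32.6% higher and 32.8% lower). Without the library that stood apart, 4 folding genes rose there (Derl2 was no longer called) and the other counts of the 38 were the same, with 61.5% of all genes called. KO cells under POVPC gave 11 up and 4 down against 6 up and 8 down, with medians of 1.65 and 0.03 and 68.5% of genes called (34.5% higher and 33.9% lower). The 4 comparisons share no library.

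**Figure D1:**
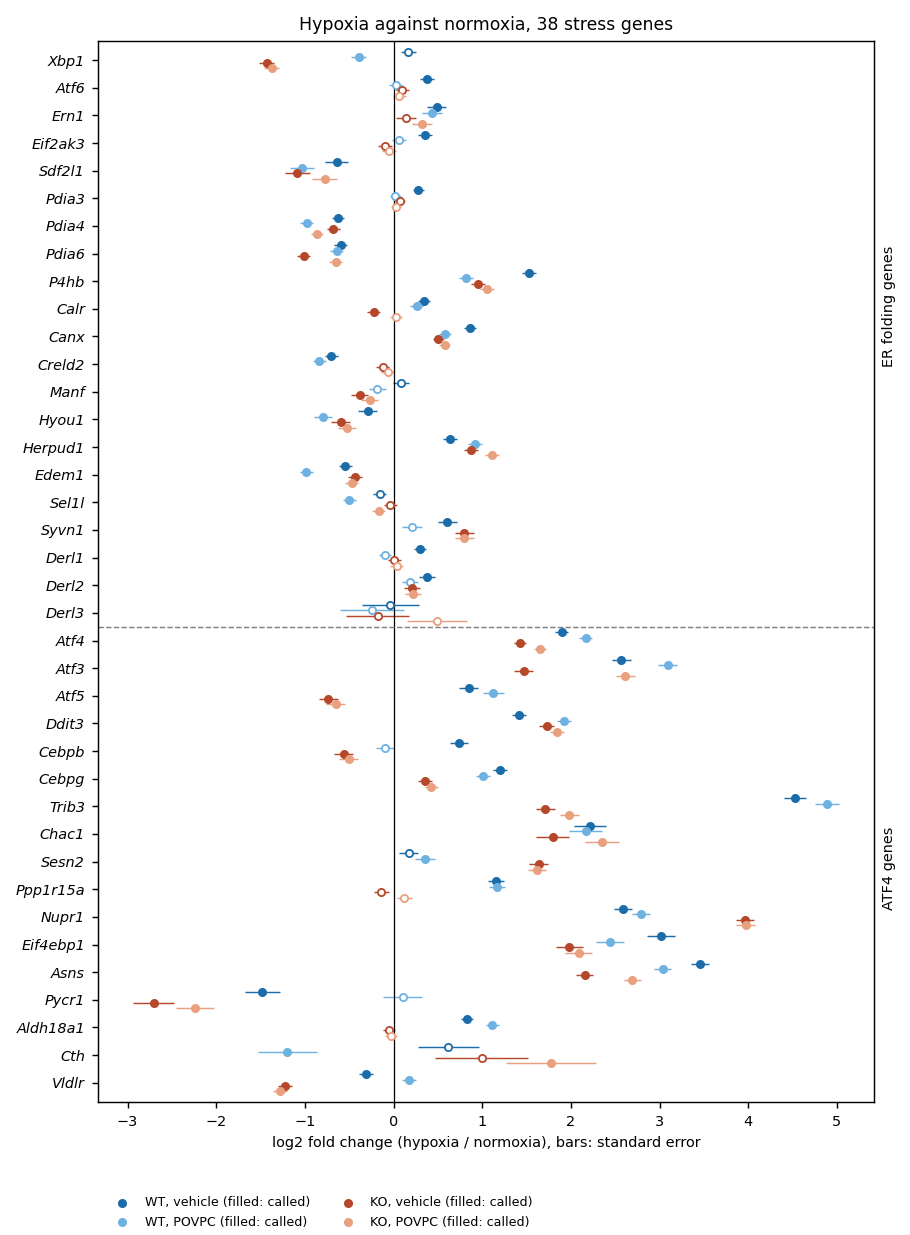
Log2 fold change in hypoxia against normoxia (x axis) for the 38 stress genes (rows, ER folding genes above the dashed line and ATF4 genes below), in WT and KO cells under vehicle or POVPC; points are estimates from 3 libraries a group, bars their standard errors, and filled points passed an FDR of 0.05. Trib3, Asns, Nupr1 and Eif4ebp1 lie to the right in all 4 series, and Sdf2l1, Pdia4, Pdia6, Hyou1 and Edem1 to the left.

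In hypoxia 9 ATF4 genes rose in all 4 settings: Atf4, Atf3, Ddit3, Cebpg, Trib3, Chac1, Nupr1, Eif4ebp1 and Asns. Of all tested genes 18.7% rose in all 4 and 19.8% fell in all 4. Trib3, a pseudokinase that feeds back on ATF4 and CHOP, rose most in WT cells. Its level under vehicle was 4.68, 5.31 and 4.05 CPM in normoxia and 103, 116 and 105 CPM in hypoxia, a change of 4.52 ± 0.12 (FDR 6.7e-23). In KO cells it started higher and ended lower, at 12.8, 11.8 and 13.3 CPM in normoxia and 44.2, 39.3 and 40.7 CPM in hypoxia, a change of 1.71 ± 0.11 (FDR 6.71e-14). Asns, which makes asparagine, went from 16.1, 15.3 and 15.8 to 170.0, 184 and 164 CPM in WT cells (3.46 ± 0.10, FDR 1.76e-22). In KO cells the levels were 33.9, 29.1 and 28 CPM and then 137, 131 and 136 CPM (2.15 ± 0.09, FDR 5.39e-18). The groups of each pair do not overlap for either gene.

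Nupr1 showed the opposite order of the lines. Its WT libraries held 75.2, 97.1 and 86.3 CPM in normoxia and 469, 564 and 518 CPM in hypoxia, and its KO libraries 34.5, 35.8 and 38.9 and 577, 563 and 564 CPM. The KO line began lower and ended at about the WT level, so that its change of 3.96 ± 0.11 (FDR 1.09e-22) exceeded the WT change of 2.58 ± 0.10 (FDR 2.24e-19). Eif4ebp1, a translation repressor, rose by 3.02 ± 0.16 (FDR 4.35e-14) in WT and 1.98 ± 0.15 (FDR 7.31e-11) in KO cells under vehicle. The early stress factor Atf3 rose by 2.57 ± 0.10 (FDR 7.82e-19) and 1.47 ± 0.11 (FDR 9.42e-13) in the same cells, and the glutathione-degrading Chac1 by 2.21 ± 0.18 (FDR 8.64e-12) and 1.79 ± 0.19 (FDR 2.7e-09). Atf4 itself was at 202 ± 7.62 CPM in WT normoxia and 751 ± 47.2 CPM in WT hypoxia, and at 230.1 ± 17.6 and 619 ± 25.4 CPM in the KO line. Ddit3, the gene of CHOP, rose by 1.41 ± 0.08 in WT and 1.72 ± 0.08 in KO cells under vehicle; its exons overlap those of Mars on the opposite strand, and counting took no account of strand.

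Under POVPC the same leading genes rose. Trib3 changed by 4.89 ± 0.13 (FDR 1.36e-22) in WT and 1.98 ± 0.11 in KO cells, Asns by 3.03 ± 0.10 and 2.69 ± 0.10, Nupr1 by 2.79 ± 0.10 and 3.97 ± 0.11 (FDR 6.04e-23), and Atf3 by 3.09 ± 0.11 and 2.61 ± 0.11. Chac1 rose by 2.35 ± 0.19 (FDR 1.28e-11) and Eif4ebp1 by 2.09 ± 0.15 (FDR 1.8e-11) in KO cells, and Eif4ebp1 by 2.44 ± 0.16 (FDR 2.75e-12) in WT cells. All of these were called.

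Not every gene of the ATF4 arm rose. Pycr1, which completes proline synthesis, fell in WT cells under vehicle from 5.44, 7.12 and 7.12 to 2.24, 2.58 and 2.27 CPM (-1.48 ± 0.20, FDR 1.6e-07). In KO cells it fell from 7.69, 7.23 and 7.73 to 1.43, 0.81 and 1.22 CPM under vehicle (-2.71 ± 0.23, FDR 3.08e-11) and fell by 2.24 ± 0.21 (FDR 2.17e-10) under POVPC, while WT cells under POVPC showed 0.10 ± 0.22 (FDR 0.706). Vldlr, a lipoprotein receptor, fell in the KO line by 1.23 ± 0.08 (FDR 6.74e-14) under vehicle and fell by 1.28 ± 0.08 (FDR 1.93e-14) under POVPC. In WT cells Vldlr changed by -0.31 under vehicle and by 0.18 under POVPC, both called. Aldh18a1, which starts proline synthesis, rose in WT cells (0.83 ± 0.07, FDR 1.31e-11) and showed -0.05 ± 0.07 (FDR 0.549) in KO cells under vehicle. The cysteine-making enzyme Cth was low throughout: in WT cells under POVPC it fell from 4.8, 6.27 and 6.48 to 1.97, 3.01 and 2.74 CPM (-1.20 ± 0.33, FDR 0.00244).

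Among the folding genes, P4hb, Canx and Herpud1 rose in all 4 settings, and Sdf2l1, Pdia4, Pdia6, Hyou1 and Edem1 fell in all 4, that is, 3 and 5 of 21 genes, against the shares over all genes given above. P4hb held 2061, 2004 and 2019 CPM in WT normoxia and 5888, 5873 and 5733 CPM in WT hypoxia under vehicle, a change of 1.52 ± 0.08; in KO cells it went from 1474, 1392 and 1195 to 2718, 2748 and 2362 CPM (0.95 ± 0.08). The lectin chaperone Canx rose by 0.86 ± 0.07 and 0.50 ± 0.06 in the same cells. Herpud1, a degradation adaptor and the folding gene with the C/EBP-ATF letters shown above, rose by 0.63 ± 0.08 and 0.88 ± 0.08. All of these were called.

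Sdf2l1, a small cochaperone, stood at 34.6, 31.9 and 33.7 CPM in WT normoxia and 22.2, 25.4 and 16.9 CPM in WT hypoxia (-0.64 ± 0.13, FDR 4.99e-05), and changed by -1.08 ± 0.14 (FDR 1.32e-07) in KO cells under vehicle. The disulfide isomerases Pdia4 and Pdia6 changed by -0.63 ± 0.07 (FDR 3.73e-09) and -0.59 ± 0.07 (FDR 2.84e-08) in WT cells under vehicle, and Pdia6 by -1.01 ± 0.07 (FDR 8.05e-13) in KO cells. Creld2, a secreted stress protein, fell in WT cells under the test used, and fell by 0.70 ± 0.07 (FDR 9.14e-10) under vehicle and fell by 0.84 ± 0.07 (FDR 5.65e-11) under POVPC, and its changes in KO cells were -0.12 ± 0.07 (FDR 0.154) and -0.07 ± 0.07 (FDR 0.424). Under POVPC, Sdf2l1 fell by 1.03 ± 0.14 (FDR 1.08e-07) in WT and 0.78 ± 0.14 (FDR 1.37e-05) in KO cells, Pdia4 by 0.98 ± 0.07 (FDR 4.7e-13) and 0.86 ± 0.07 (FDR 6.15e-12), and Edem1, which draws misfolded glycoproteins to degradation, by 0.98 ± 0.07 (FDR 2.1e-12) in WT cells. Pdia6 and Canx, whose promoters both hold the ER stress response element, thus changed in opposite directions. Exons of Pdia6 overlap Atp6v1c2 on the opposite strand, and those of Pdia4 overlap Mir704 on the same strand.

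Xbp1 behaved differently in the 2 lines. Its WT libraries under vehicle held 134, 149.5 and 148 CPM in normoxia and 156, 182 and 147 CPM in hypoxia, which overlap (0.17 ± 0.08, FDR 0.0785). The KO libraries held 126, 127 and 109 CPM in normoxia and 46.3, 42.9 and 45.04 CPM in hypoxia, well apart (-1.43 ± 0.09, FDR 1.17e-14). Under POVPC it fell by 1.37 ± 0.09 (FDR 1.97e-14) in KO cells and fell by 0.39 ± 0.08 (FDR 0.00017) in WT cells. Calr, a calcium-binding chaperone, rose by 0.34 ± 0.07 (FDR 8.53e-05) in WT cells and fell by 0.23 ± 0.07 (FDR 0.00599) in KO cells under vehicle. Atf6, Ern1 and Eif2ak3 each rose in WT cells under vehicle, by 0.38 ± 0.07, 0.48 ± 0.11 and 0.35 ± 0.08. In KO cells under vehicle the same sensors gave 0.10 ± 0.07 (FDR 0.246), 0.14 ± 0.11 (FDR 0.275) and -0.10 ± 0.08 (FDR 0.27).

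The degradation genes form a channel and a ubiquitin ligase through which misfolded protein leaves the ER. The ligase Syvn1, whose exons overlap Mrpl49 on the opposite strand, rose in 3 of the 4 settings, by 0.61 ± 0.11 in WT and 0.80 ± 0.11 in KO cells under vehicle. Its partner Sel1l gave -0.16 ± 0.07 (FDR 0.0599) and -0.04 ± 0.07 (FDR 0.65), and the derlins Derl1 and Derl2 gave 0.30 ± 0.07 (FDR 0.000386) and 0.37 ± 0.09 (FDR 0.000464) in WT and 0.01 ± 0.07 (FDR 0.926) and 0.21 ± 0.09 (FDR 0.041) in KO cells. The disulfide isomerase Pdia3 gave 0.28 ± 0.06 (FDR 7.93e-05) and 0.07 ± 0.06 (FDR 0.305), and the secreted protective factor Manf 0.08 ± 0.09 (FDR 0.447) and -0.38 ± 0.10 (FDR 0.000956).

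**Figure D2:**
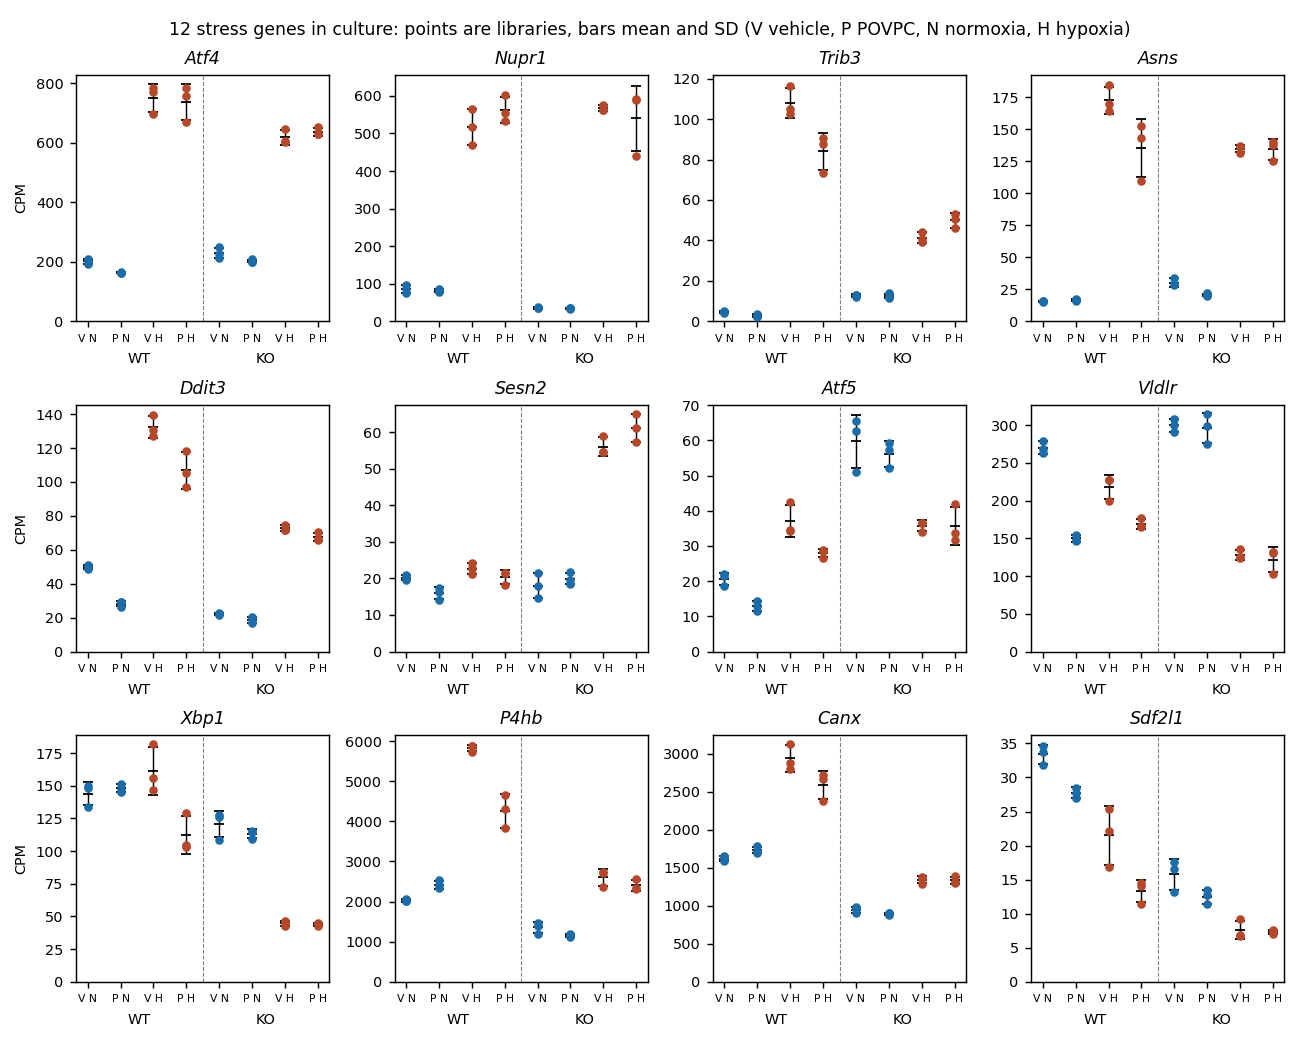
Levels in CPM (y axis, from 0) of 12 of the stress genes in the 8 culture groups (x axis; WT left and KO right of the dashed line, normoxia in blue and hypoxia in red), with each library as a point and mean and SD as bars. Trib3 reaches 103 to 116 CPM in WT hypoxia under vehicle and 39.3 to 44.2 CPM in the KO line, and Xbp1 stands at 42.9 to 46.3 CPM in KO hypoxia under vehicle, below the 147 to 182 CPM of WT hypoxia under vehicle.

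The difference between the lines in their hypoxia change was tested directly, as KO minus WT. Under vehicle 26 of the 38 genes were called: 1 folding gene was positive and 10 were negative, and 3 ATF4 genes were positive and 12 negative, against 39.1% of all tested genes called (19.2% higher and 19.9% lower). Without the library that stood apart the counts of the 38 were the same, with Sdf2l1 called (-0.56) and Atf6 not (-0.21), and 40.3% of all genes were called. The difference was -2.81 ± 0.16 (FDR 3.35e-14) for Trib3, -1.60 ± 0.12 (FDR 9.62e-12) for Xbp1, -1.58 ± 0.15 (FDR 1.93e-09) for Atf5, -1.30 ± 0.13 (FDR 2.64e-09) for Asns and -1.30 ± 0.15 (FDR 4.79e-08) for Cebpb, all negative. Xbp1, Atf5 and Cebpb fell in the KO line, and Trib3 and Asns rose less there. Sesn2, a stress-induced inhibitor of growth signalling, had a larger rise in the KO line. It held 20.1, 20.9 and 19.5 and 21.1, 24.2 and 22.8 CPM in WT normoxia and hypoxia, which do not overlap although the change was not called (0.17 ± 0.11, FDR 0.165), and 14.6, 17.8 and 21.6 and 54.6, 58.9 and 54.6 CPM in the KO line, a difference of 1.47 ± 0.15 (FDR 6.21e-09) between the lines. Nupr1 followed with 1.38 ± 0.14 (FDR 2.04e-09). Creld2 gave 0.58 ± 0.10 (FDR 4.87e-05), with a fall called in WT cells and none in KO cells, and Ddit3 gave 0.31 ± 0.11 (FDR 0.0234), a call that was lost when any of 4 libraries was left out.

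Under POVPC the difference was called in 19 genes (4 folding genes positive and 1 negative, 3 ATF4 genes positive and 11 negative), against 30% of all tested genes (15.7% higher and 14.4% lower). Trib3 again differed most in the negative direction, at -2.91 ± 0.17 (FDR 7.49e-14), with Pycr1 at -2.34 ± 0.31 (FDR 8.02e-07), Atf5 at -1.77 ± 0.16 (FDR 6.39e-10), Vldlr at -1.46 ± 0.11 (FDR 2.67e-11) and Aldh18a1 at -1.14 ± 0.10 (FDR 2.68e-10). Xbp1 gave -0.98 ± 0.12 (FDR 1.83e-07). On the positive side stood Cth (2.97 ± 0.61, FDR 0.000368), Sesn2 (1.26 ± 0.15, FDR 2.26e-07), Nupr1 (1.18 ± 0.13, FDR 5.96e-08), Creld2 (0.77 ± 0.10, FDR 1.24e-06) and the ubiquitin ligase Syvn1 (0.59 ± 0.15, FDR 0.00396). The Cth value rests on KO means of 0.204 CPM in normoxia and 0.727 CPM in hypoxia. The Syvn1 value was 0.42 (FDR 0.116) when the 3 smallest culture libraries were left out, 2 of them from WT POVPC hypoxia, so that 1 library stood for that group and was taken to vary like the others. Atf5, a factor related to ATF4, changed in opposite directions: it rose in WT cells under vehicle from 21.96, 21.4 and 18.6 to 34.6, 34.4 and 42.4 CPM and fell in KO cells from 51.1, 65.4 and 62.6 to 36.6, 36.6 and 33.9 CPM. Its exons overlap Nup62 on the opposite strand.

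Other genes of the same pathways, from lists that share no gene with the 38, were counted beside them. Of 30 other ATF4 targets tested, 28 rose and 2 fell in WT cells in hypoxia under vehicle (median 1.19), and 22 rose and 3 fell in KO cells (median 0.55). The same counts held under POVPC, with medians of 1.29 and 0.71. There 66.1% of all tested genes were called in WT cells and 68.5% in KO cells. The branched-chain aminotransferase Bcat1 rose by 4.07 ± 0.13 (FDR 3.65e-21) in WT and 3.42 ± 0.14 (FDR 1.14e-18) in KO cells under vehicle, and the cystine carrier Slc7a11 by 4.46 ± 0.11 (FDR 4.66e-24) in WT cells. Of 27 other folding and degradation genes, 9 rose and 11 fell in WT cells and 7 rose and 18 fell in KO cells under vehicle. Ero1l, the oxidase that recharges disulfide isomerases and a known hypoxia gene, rose by 3.87 ± 0.09 (FDR 1.07e-24) and 3.45 ± 0.09 (FDR 1.88e-23), and Fkbp14, a prolyl isomerase for collagen, fell by 1.11 ± 0.09 (FDR 4.66e-12) and 1.66 ± 0.09 (FDR 2.56e-15). Of 11 other regulators, 3 rose and 6 fell in WT and 4 rose and 4 fell in KO cells. Over all tested genes under vehicle, 68.1% were called in WT cells (32.8% higher and 35.3% lower). In KO cells 65.4% were called (32.6% higher and 32.8% lower). The KO counts under vehicle without the library that stood apart were 21 up and 3 down for the ATF4 targets, 5 and 18 for the folding genes and 5 and 3 for the regulators. In that fit 61.5% of all tested genes were called.

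Smooth muscle markers moved with these groups, and their part in the results was not tested. Of 12 markers, 8 reached 1 CPM in the cultures and none was at 0 in all culture libraries. Their summed level was 1448 to 1515 CPM in WT vehicle normoxia, 271 to 322 in WT vehicle hypoxia, 289 to 376 in KO vehicle normoxia and 199 to 221 in KO vehicle hypoxia. With POVPC it was 829 to 941 and 131 to 148 in WT normoxia and hypoxia, and 344 to 354 and 139 to 213 in the KO line. The 8 adventitial fibroblast markers (7 at 1 CPM or more) summed to 306 to 333, 79.5 to 83.9, 941 to 1047 and 335 to 383 CPM in the 4 vehicle groups in the same order, and the 8 epithelial markers (3 at 1 CPM or more) to 13.1 to 14.8, 509.9 to 668, 90.7 to 105 and 259.9 to 307 CPM. In bulk samples, fewer cells of a type and less RNA per cell cannot be told apart.

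The genotype comparison asked how the KO line differed from the WT line in each condition. The folding genes were mostly lower in the KO line. In the ATF4 arm more genes were higher than lower in normoxia, and more were lower than higher in hypoxia. Under vehicle and normoxia 1 folding gene was higher and 14 were lower (median -0.35), and 8 ATF4 genes were higher and 3 lower (median 0.19), with 60.6% of all tested genes called (29.8% higher and 30.8% lower) and a median over all genes of -0.02. Without the library that stood apart the counts were 2 and 13 among folding genes and 8 and 4 in the ATF4 arm, with 57.9% of all genes called. Under POVPC and normoxia 1 and 14 folding genes and 11 and 5 ATF4 genes were higher and lower (background 60.2% called, 29.5% higher and 30.7% lower). In hypoxia under vehicle 2 folding genes were higher and 17 lower, and 2 ATF4 genes were higher and 11 lower, with medians of -0.59 and -0.46 (background 59.9%, 29.5% higher and 30.4% lower). In hypoxia under POVPC the counts were 3 and 14 among folding genes and 3 and 9 in the ATF4 arm (background 57.6%, 30% higher and 27.6% lower). These comparisons use the same libraries as the hypoxia changes above.

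**Figure D3:**
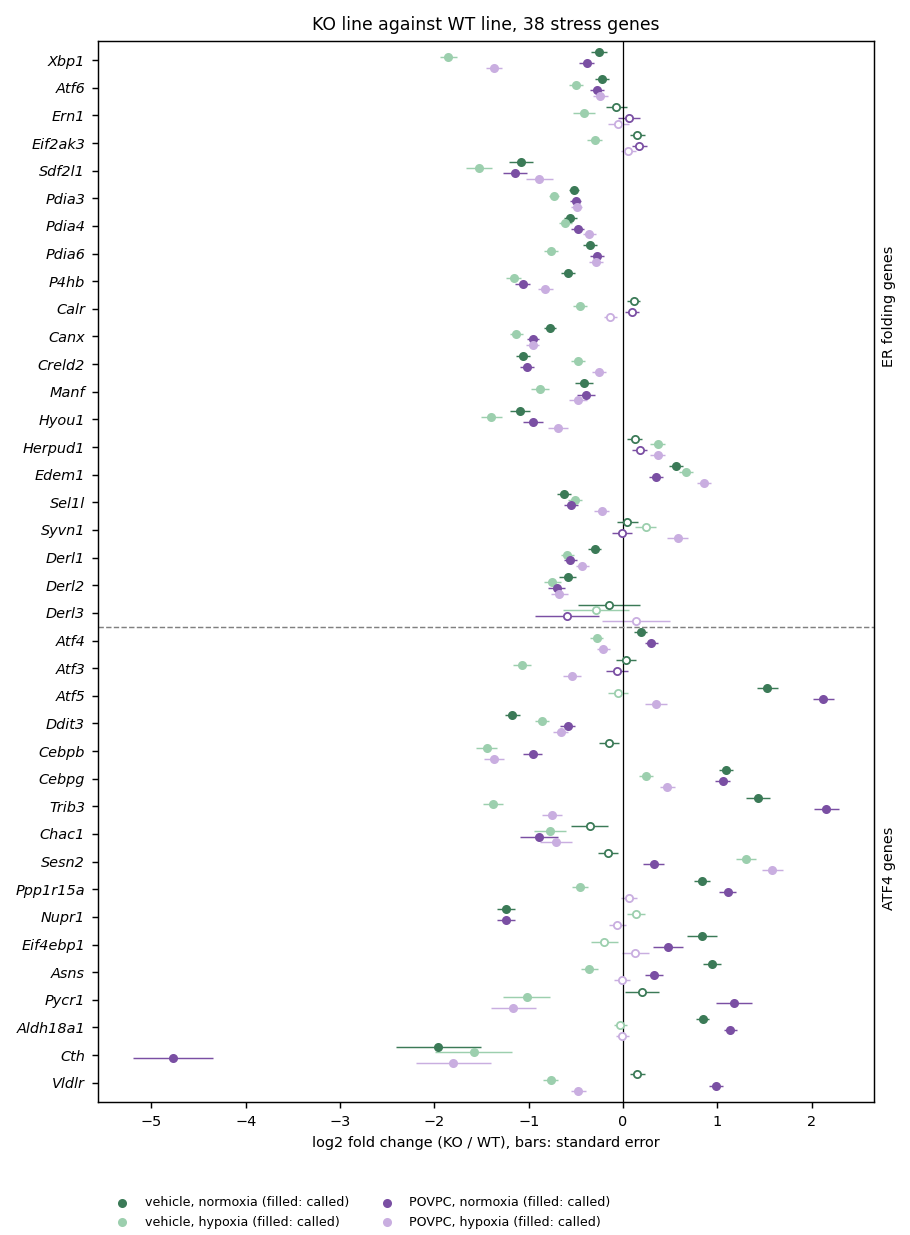
Log2 fold change of the KO line against the WT line (x axis) for the 38 stress genes (rows) under vehicle or POVPC, in normoxia or hypoxia; bars are standard errors and filled points passed an FDR of 0.05. Most folding genes lie left of 0 in all 4 conditions, with Edem1 to the right, and Trib3, Atf4, Pycr1 and Vldlr lie right of 0 in normoxia and left of it in hypoxia.

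Lower in the KO line in all 4 conditions were 14 of the 21 folding genes: Xbp1, Atf6, Sdf2l1, Pdia3, Pdia4, Pdia6, P4hb, Canx, Creld2, Manf, Hyou1, Sel1l, Derl1 and Derl2. Of all tested genes 13.8% were lower in all 4 and 14% higher in all 4. For Xbp1 the call under vehicle and normoxia was lost without the library that stood apart (-0.18, FDR 0.0775). Hyou1, a large ER chaperone of the HSP70 kind, held 279, 259.6 and 259 CPM in WT and 106, 137 and 131 CPM in KO cells under vehicle and normoxia (-1.09 ± 0.11, FDR 8.5e-10), and changed by -1.395 ± 0.11 (FDR 8.3e-12) in hypoxia. Sdf2l1 gave -1.09 ± 0.13 and -1.53 ± 0.14 (FDR 1.99e-10) in the same conditions, and -1.15 ± 0.13 (FDR 9.09e-09) under POVPC and normoxia. Canx held 1655, 1609 and 1593 CPM in WT and 979, 959 and 905 CPM in KO cells under vehicle and normoxia, and 2671, 2379 and 2727 against 1295, 1313 and 1391 CPM under POVPC and hypoxia (-0.96 ± 0.07, FDR 2.93e-13). P4hb was lower by 1.06 ± 0.08 (FDR 1.43e-12) and Creld2 by 1.02 ± 0.07 (FDR 5.92e-13) under POVPC and normoxia. Xbp1, a transcription factor counted in the folding class, was the most lowered of that class in hypoxia. It changed by -1.85 ± 0.09 (FDR 7.01e-17) under vehicle and -1.37 ± 0.09 (FDR 6.83e-14) under POVPC. For these genes no WT library lay below a KO library in the conditions named.

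Edem1 was higher in the KO line in all 4 conditions. Its libraries held 143, 134 and 133 CPM in WT and 206, 199.9 and 199.8 CPM in KO cells under vehicle and normoxia, and the change was 0.67 ± 0.07 (FDR 6.21e-09) in vehicle hypoxia and 0.86 ± 0.07 (FDR 7.46e-11) in POVPC hypoxia. Herpud1 was higher in hypoxia alone under the test used, by 0.37 ± 0.08 (FDR 0.000193) and 0.37 ± 0.08 (FDR 0.000218), and Syvn1 by 0.58 ± 0.11 (FDR 4.97e-05) under POVPC and hypoxia.

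In the ATF4 arm, Cebpg, a C/EBP partner of ATF4, was higher in the KO line in all 4 conditions. It held 29.6, 33.8 and 34.1 CPM in WT and 69.6, 70.8 and 67.3 CPM in KO cells under vehicle and normoxia (1.09 ± 0.07, FDR 3.01e-13), and 0.24 ± 0.07 (FDR 0.00527) and 0.47 ± 0.07 (FDR 4.01e-06) were the changes in hypoxia. The first of these hypoxia calls was lost under scaling by library size alone. Ddit3 was lower in all 4: its WT libraries held 49.1, 48.9 and 51.1 CPM and its KO libraries 22.1, 22.5 and 21.5 CPM under vehicle and normoxia (-1.17 ± 0.08, FDR 1.74e-13). Cth was lower as well, by 1.96 ± 0.45 (FDR 0.000442), 1.58 ± 0.41 (FDR 0.00146), 4.77 ± 0.42 (FDR 6.97e-11) and 1.80 ± 0.40 (FDR 0.000286) under vehicle normoxia, vehicle hypoxia, POVPC normoxia and POVPC hypoxia, from WT means of 1.29 to 5.85 CPM. The KO means were 0.204 to 0.727 CPM, and the KO normoxia libraries held 4 to 12 counts. The sizes of the Cth differences therefore rest on few counts.

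Several ATF4 genes were higher in KO normoxia. Atf5 was higher by 1.53 ± 0.11 (FDR 7.11e-13) under vehicle and 2.12 ± 0.11 (FDR 1.01e-15) under POVPC, Trib3 by 1.43 ± 0.12 (FDR 4.36e-11) and 2.16 ± 0.13 (FDR 2.75e-14), and Aldh18a1 by 0.84 ± 0.07 (FDR 1.45e-11) and 1.14 ± 0.07 (FDR 2.27e-14). Asns (0.94 ± 0.09, FDR 8.46e-10) joined them under vehicle. Ppp1r15a, the phosphatase subunit that restores eIF2, was higher by 1.11 ± 0.09 (FDR 7.37e-12) and Pycr1 by 1.18 ± 0.19 (FDR 6.31e-06) under POVPC. Nupr1 was lower in both treatments in normoxia, by 1.24 ± 0.10 (FDR 4.78e-12) and 1.24 ± 0.10 (FDR 4.77e-12). In hypoxia Trib3 was lower in the KO line (-1.38 ± 0.10, FDR 2.4e-12 under vehicle), and the C/EBP factor Cebpb was lower by 1.45 ± 0.11 (FDR 2.12e-12) under vehicle and lower by 1.37 ± 0.11 (FDR 8.49e-12) under POVPC, and Pycr1 changed by -1.16 ± 0.24 (FDR 0.000149) under POVPC. Sesn2 was higher in hypoxia, by 1.31 ± 0.11 (FDR 1.32e-11) and 1.58 ± 0.11 (FDR 6.19e-13). Atf4, Trib3, Ppp1r15a, Asns, Pycr1 and Vldlr were called higher in some conditions and lower in others.

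Among the 27 other folding and degradation genes, 19 were lower and 4 higher in the KO line under vehicle and normoxia, and 22 lower and 2 higher under vehicle and hypoxia. Ube2j1, an ER ubiquitin-conjugating enzyme, was one of those higher (1.68 ± 0.07, FDR 1.01e-18). Of the 30 other ATF4 targets, 17 were higher and 6 lower in vehicle normoxia, and 5 higher and 18 lower in vehicle hypoxia. Gpt2, an alanine aminotransferase, was higher by 2.10 ± 0.09 (FDR 1.34e-18) in normoxia, and Shmt2, of mitochondrial one-carbon metabolism, was lower by 1.396 ± 0.09 (FDR 2.55e-14) in hypoxia. Of the 11 other regulators, 2 were higher and 5 lower in vehicle normoxia and 3 were higher and 3 lower in vehicle hypoxia. Over all tested genes 60.6% were called in vehicle normoxia (29.8% higher and 30.8% lower). In vehicle hypoxia 59.9% were called (29.5% higher and 30.4% lower). Counted in either direction, the regulators lay near these shares. Without the library that stood apart the folding and degradation genes gave 18 lower and 4 higher in vehicle normoxia, the ATF4 targets the same counts, and the regulators 6 lower and 2 higher. In that fit 57.9% of all tested genes were called.

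POVPC moved fewer of the genes. In WT normoxia 2 folding genes rose and 2 fell, and 2 ATF4 genes rose and 9 fell, where 26.9% of all tested genes were called (13.1% higher and 13.8% lower). The medians were -0.04 and -0.29, against -0.02 over all genes. Ddit3 fell from 49.1, 48.9 and 51.1 to 26.3, 29.4 and 29.1 CPM (-0.81 ± 0.08, FDR 1.83e-09) and Vldlr from 263, 279 and 268 to 148, 147 and 155 CPM (-0.85 ± 0.08, FDR 1.05e-09). Atf5, Trib3 and Pycr1 fell by 0.68 ± 0.12 (FDR 3.07e-05), 0.72 ± 0.15 (FDR 0.000294) and 1.09 ± 0.19 (FDR 6.37e-05). Cth rose from 1.15, 1.33 and 1.37 to 4.8, 6.27 and 6.48 CPM (2.18 ± 0.33, FDR 6.38e-06) and Cebpb from 24.6, 26.7 and 27.8 to 40.7, 41.1 and 48.01 CPM (0.71 ± 0.10, FDR 2.54e-06). P4hb (0.26 ± 0.08, FDR 0.0133) and Edem1 (0.26 ± 0.07, FDR 0.00914) rose less; the P4hb call was lost without WT vehicle normoxia 2 or WT POVPC normoxia 3, the Edem1 call without WT POVPC normoxia 1, and both under scaling by library size alone. That scaling moved the median of all genes to -0.13 and gave 2 genes higher and 13 lower in place of 4 and 11.

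In WT hypoxia POVPC lowered 15 of the 21 folding genes and 7 of the 17 ATF4 genes and raised Herpud1 alone, where 21% of all tested genes were called (8.22% higher and 12.7% lower). The medians were -0.27 and -0.15. P4hb went from 5888, 5873 and 5733 to 4298, 3824 and 4651 CPM (-0.45 ± 0.08, FDR 9.1e-05) and Sdf2l1 from 22.2, 25.4 and 16.9 to 14.5, 11.5 and 14.1 CPM (-0.66 ± 0.14, FDR 0.000717). Xbp1, Hyou1 and Pdia4 fell by 0.52 ± 0.08 (FDR 3.99e-05), 0.54 ± 0.10 (FDR 0.000433) and 0.51 ± 0.07 (FDR 3.86e-06), and Herpud1 rose by 0.28 ± 0.08 (FDR 0.0118). The count differed with the libraries fitted, and the cause was not tested: against 23 genes, 14 were called without WT POVPC hypoxia 2 (8063121 counts) and 14 with every library of the 2 groups fitted alone. With the 3 smallest culture libraries left out, WT POVPC hypoxia kept 1 library, whose spread was taken from the other groups, and 6 genes were called; Xbp1 (-0.33), P4hb (-0.33) and Herpud1 (0.28) kept their direction but not their call, which says little about how stable they are. The Herpud1 call was also lost without WT vehicle hypoxia 3. Of the other folding and degradation genes 16 of 27 fell and 0 rose, among them Ero1l (-0.84 ± 0.08, FDR 3.77e-09). In 1 of the 3 WT POVPC hypoxia libraries the 8 T and B lymphocyte markers summed to 29.92 CPM, against 0.303 and 0.625 CPM in the others, and the part of this in the result was not tested.

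In KO normoxia the count of genes changed by POVPC depended on the library that stood apart. With it 6 of 14496 tested genes were called (0.0414%, 0.0069% higher and 0.0345% lower), without it 310 of 14733 (2.1%). With it Asns was the 1 gene of the 38 called. Its libraries held 33.9, 29.1 and 28 CPM under vehicle and 20.1, 20.6 and 21.8 CPM under POVPC (-0.54 ± 0.09, FDR 0.0147). That call was lost without any 1 of the other 5 libraries of the comparison, with the groups fitted alone, and under scaling by library size alone. With KO vehicle normoxia 3, the library that stood apart, left out, 3 of the 38 genes were called: 2 folding genes and 1 ATF4 gene, all lower. They were Asns, Calr (-0.31, FDR 0.033) and P4hb (-0.30, FDR 0.0429). In hypoxia 3 of the 38 were called, where 4.06% of all genes were (1.97% higher and 2.09% lower). Atf3 rose from 23.5, 25.8 and 22.8 to 38.4, 35.6 and 48.6 CPM (0.76 ± 0.10, FDR 2.56e-05), Herpud1 rose by 0.28 ± 0.08 (FDR 0.0379) and Pdia4 fell by 0.25 ± 0.07 (FDR 0.0346). The last 2 calls were each lost without KO vehicle hypoxia 2 or KO POVPC hypoxia 3, among others, and under scaling by library size alone, when only Atf3 was called.

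**Figure D4:**
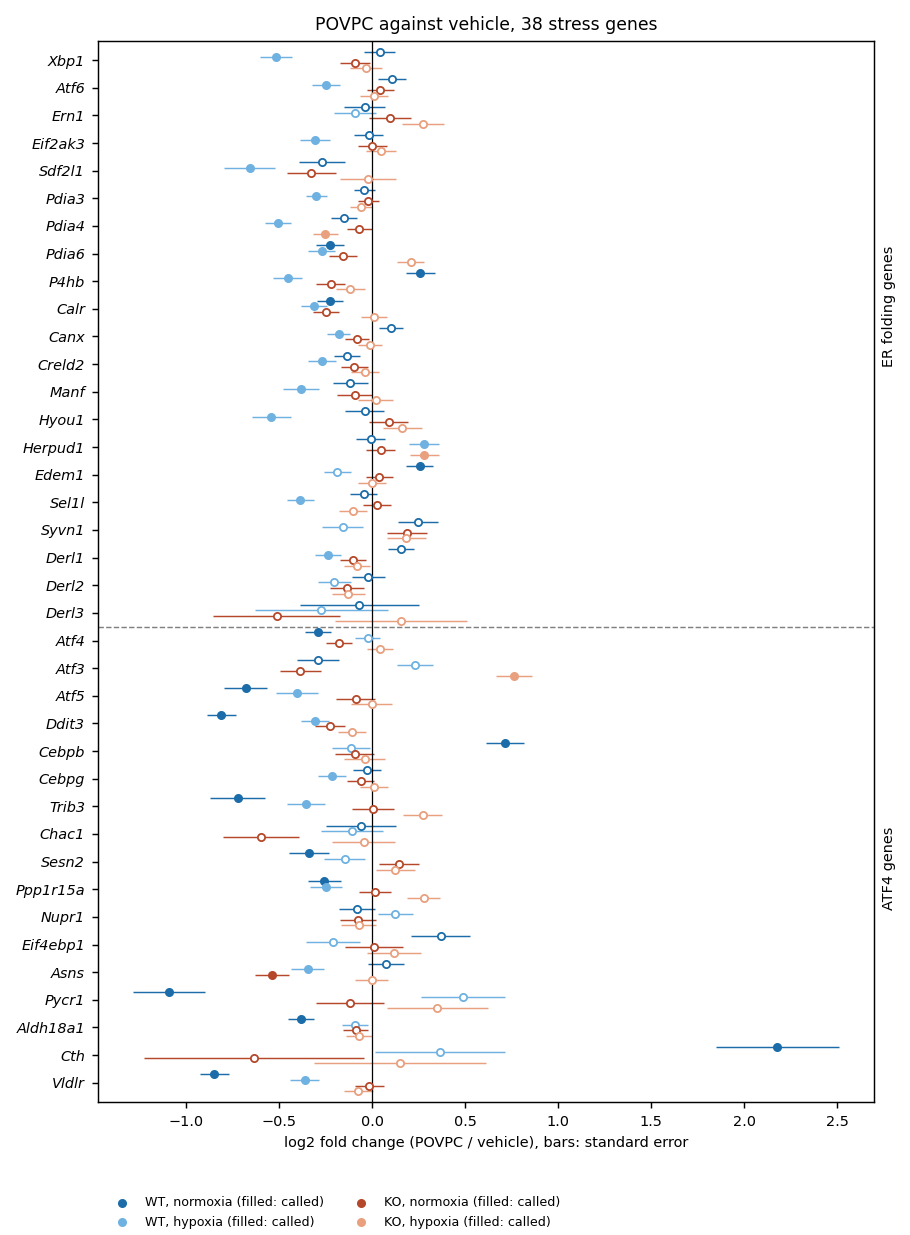
Log2 fold change under POVPC against vehicle (x axis) for the 38 stress genes (rows) in WT and KO cells, in normoxia or hypoxia; bars are standard errors and filled points passed an FDR of 0.05. Filled points are mostly those of WT cells, and the only filled point of KO normoxia is Asns at -0.54.

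The difference between the lines in their POVPC change was called in 11 of the 38 genes in normoxia, where 16.2% of all tested genes were called (8.17% higher and 8% lower): 1 folding gene was negative, and 7 ATF4 genes were positive and 3 negative. Without the library that stood apart the counts were 2 folding genes negative and 6 and 3 in the ATF4 arm, with 17.8% of all genes called. Vldlr (0.83 ± 0.11, FDR 1.91e-06), Pycr1 (0.97 ± 0.27, FDR 0.00989), Trib3 (0.73 ± 0.18, FDR 0.00563), Atf5 (0.59 ± 0.16, FDR 0.00748) and Ddit3 (0.58 ± 0.11, FDR 0.000296) were on the positive side, with none of the 5 called in the KO line. Cth (-2.81 ± 0.69, FDR 0.004), Cebpb (-0.81 ± 0.15, FDR 0.000146), Asns (-0.61 ± 0.13, FDR 0.00132) and P4hb (-0.48 ± 0.11, FDR 0.00222) stood on the other side. The Cth value rests on KO means of 0.331 CPM under vehicle and 0.204 CPM under POVPC, and its call was lost without KO vehicle normoxia 2. Scaling by library size alone moved the median of all genes to 0.20 and gave 7 positive and 2 negative calls, without those of P4hb and Asns.

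In hypoxia the difference was called in 9 genes, all positive (6 folding and 3 ATF4 genes), where 9.37% of all genes were called (5.89% higher and 3.48% lower). They were led by Hyou1 (0.71 ± 0.15, FDR 0.00265), Sdf2l1 (0.64 ± 0.20, FDR 0.0437), Trib3 (0.63 ± 0.14, FDR 0.00515), Atf3 (0.53 ± 0.14, FDR 0.0123) and Ppp1r15a (0.52 ± 0.12, FDR 0.00601). With the 3 smallest culture libraries left out, so that WT POVPC hypoxia kept 1 library and its spread came from the other groups, none of the 9 was called; the values were 0.45 for Hyou1, 0.70 for Sdf2l1, 0.51 for Trib3, 0.51 for Atf3 and 0.37 for Ppp1r15a, and with 1 library this says little about the 9. Across fits without 1 library the count was 6 to 15: 15 were called without WT POVPC hypoxia 3, the Sdf2l1 call was lost without any of 8 of the 12 libraries and the Atf3 call without KO vehicle hypoxia 3 or KO POVPC hypoxia 3.

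In lesions no gene passed the FDR: 0 of 14993 tested genes were called by edgeR (0%), and 2216 (14.8%, 9.19% higher and 5.59% lower in KO) had an unadjusted p under 0.05. Of the 38 stress genes 7 did, all higher in KO. With KO animal 4 and WT animal 1 left out, 0 of the 38 were called. The medians were 0.13 for the folding genes and 0.08 for the ATF4 genes, with -0.01 over all genes. DESeq2 called 447 of 13363 genes (3.35%, 2.28% higher and 1.06% lower) and 1 of the 38, Atf3 (0.76, adjusted p 0.0466).

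The 6 stress genes with the smallest p were all higher in KO lesions. Sdf2l1 held 25.99, 33.95, 30.2 and 41.4 CPM in the KO animals and 21.9, 26.8, 22.3 and 22.1 CPM in the WT animals (0.50 ± 0.15, FDR 0.186). WT animal 2 lies above KO animal 1, so the groups overlap. Atf3 held 62.8, 92.1, 82.9 and 143 CPM in KO and 45.99, 65.3, 57.5 and 55.3 CPM in WT (0.77 ± 0.23, FDR 0.204), with KO animal 4 far above the rest. Cebpb held 45.6, 47.7, 48.6 and 53.2 CPM in KO and 44.3, 35.9, 32.9 and 40.95 CPM in WT (0.34 ± 0.11, FDR 0.215). Derl1, a channel of ER-associated degradation, held 133, 136, 135 and 137 and 123, 123, 114 and 122 CPM (0.17 ± 0.07, FDR 0.292). Calr was at 552, 639.5, 631 and 692 and 428, 588, 535 and 464 CPM (0.32 ± 0.13, FDR 0.301), and Cebpg at 98.2, 103, 107 and 116 and 92.8, 91.5, 94.5 and 94.8 CPM (0.18 ± 0.08, FDR 0.308). Cebpb, Cebpg and Derl1 were the 3 of the 38 with no overlap between the groups, all higher in KO. Over all tested genes 8.8% had no overlap, 5.47% higher and 3.33% lower.

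Asns, Nupr1 and Trib3, with some of the largest rises in cultured cells in hypoxia, were not among these 6. Asns held 65.2, 44.9, 46.1 and 23.3 CPM in KO and 36.4, 51.3, 36.3 and 69.2 CPM in WT lesions (-0.11 ± 0.32, FDR 0.885), Nupr1 102, 116, 152 and 223 and 96.5, 150.1, 152 and 82.95 CPM (0.30 ± 0.29, FDR 0.657), and Trib3 3.5, 4.37, 4.65 and 4.74 and 4.34, 3.47, 4.38 and 4.7 CPM (0.04 ± 0.18, FDR 0.924). In each the groups overlap. Xbp1 stood at 96.4 ± 11.03 CPM in KO and 92.2 ± 2.42 CPM in WT lesions (0.07 ± 0.09, FDR 0.768). None of the 27 other folding genes, 30 other ATF4 targets or 11 other regulators was called by edgeR, with medians of 0.17, 0.04 and -0.03.

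**Figure D5:**
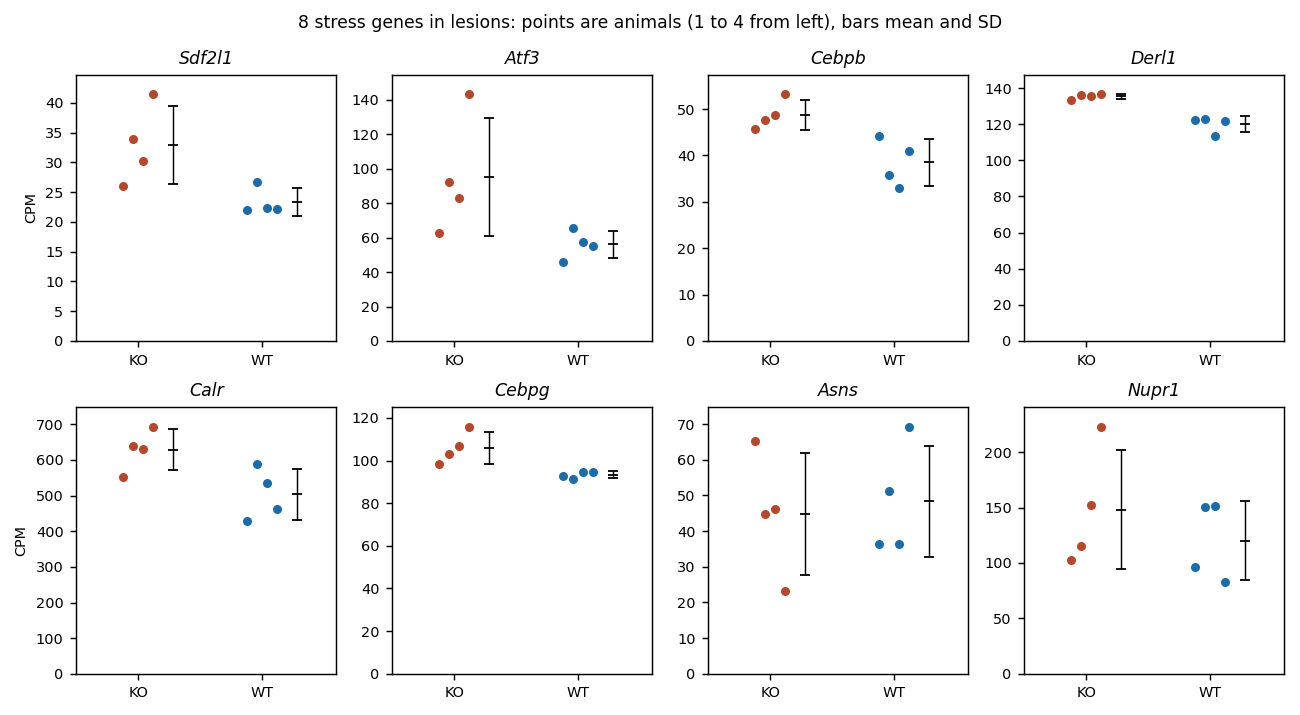
Levels in CPM (y axis, from 0) of 8 of the stress genes in lesions, with each animal as a point (animals 1 to 4 from left to right, KO in red and WT in blue) and mean and SD as bars. The KO points of Cebpb, Cebpg and Derl1 lie above all WT points, and KO animal 4 has the highest Atf3 level, at 143 CPM.

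Cell type markers differed between the lesion groups, and their part in the values above was not tested. All 12 macrophage markers were higher in KO lesions (median 0.90), with a summed level of 5258 to 12740 CPM in KO and 3250 to 5058 CPM in WT animals, and all 12 smooth muscle markers were lower (median -0.43), with sums of 4813 to 7017 and 6810 to 10160 CPM. Of 10 endothelial markers 9 were higher, of 6 tested plasma cell markers 5 were higher, of 8 adventitial markers 7 were higher, of 7 chondrocyte markers 6 were lower and of 5 epithelial markers 5 were lower. The 8 T and B lymphocyte markers were mixed, with 5 higher and 3 lower and sums of 16.1 to 37.8 CPM in KO and 16.5 to 26.7 CPM in WT. Plasma cells express Xbp1 and Derl3 strongly, and both genes were left out of that list. Igj, Sdc1, Tnfrsf17, Mzb1, Prdm1, Irf4, Pou2af1 and Fkbp11 made up the plasma cell list, whose sum was 115 to 218 CPM in KO and 99.9 to 139 CPM in WT lesions. No marker found in the table was at 0 in all lesion libraries, and single groups were not checked.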

How the data were processed

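RNA was sequenced from 8 lesion and 24 culture libraries. The deposited values are raw gene counts. Per the file headers, featureCounts 1.4.4 assigned alignments to mm9 exons (UCSC) and added them up by gene name, ignoring strand. In lesions a count is a read pair whose mates both aligned, and in cultures every mate is its own count, per the file headers. The submitters' processing notes name CASAVA, STAR, featureCounts, Subread, DESeq2 and mm9.

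The 38 genes and the other lists were chosen with earlier results of these data known. The tables were fitted apart with edgeR 4.0.16 in R 4.3.3 (quasi-likelihood, robust, TMM, filterByExpr by group with minimum count 10 and minimum total 15), the cultures in 1 model of 8 groups, for 17 comparisons. Tests were 2-sided, with Benjamini-Hochberg adjustment over all tested genes and a threshold of 0.05. The standard error is the log2 change divided by the root of its F statistic. Genes given full statistics were, in each comparison, the called members with the 5 largest rises and 5 largest falls, with a mean of at least 1 CPM in a group, or in lesions the 6 with the smallest p. The levels and changes of other members, and the genes named where a call was lost or changed, were chosen after their values were seen. Of the other pathway genes, up to 2 per list in each comparison were eligible, those with the smallest p. The steps were tested on simulated data.

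Alternatives were RLE factors, library size alone, DESeq2 1.42.0, no filter, a filter at 5 CPM, a replicate block, a 2-fold minimum, the compared groups alone, halved culture counts, the 3 smallest culture libraries left out, lesion KO 4 and WT 1 left out, and each library left out in turn. A replicate block on the compared groups alone was added after seeing the data. Same-numbered libraries deviated together (every correlation over 0.1, from 0.119 to 0.377) in hypoxia against normoxia in KO cells under POVPC, and in none of the 11 other pairs of culture groups or the lesions. With 3 or 4 libraries a group, small differences may not be detectable, and the number of counts limits precision most in the smallest libraries.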

Additional observations from a re-analysis of the deposited data

Results flagged for a closer look

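In lesions, 3 of 76 groups of 4 animals held 1 animal far from the others relative to the range of the group, by Dixon's test at 95%, which chance gives in about 1 of 20 groups. Sdf2l1 stood at 26.77 CPM in WT animal 2, where the next WT animal had 22.32 CPM. Manf, a secreted protective factor, stood at 59.43 CPM in KO animal 1, below the next at 67.01 CPM. Derl1 stood at 113.6 CPM in WT animal 3, below the next at 121.6 CPM.

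The response to hypoxia differed between the lines, by the test of the difference (KO minus WT), in 26 of the 38 genes under vehicle and 19 under POVPC, against 39.1% and 30% of all tested genes. Under vehicle the log2 differences were -2.81 for Trib3, -1.598 for Xbp1, -1.585 for Atf5, -1.302 for Asns and -1.296 for Cebpb. They were 1.465 for Sesn2, 1.379 for Nupr1, 0.579 for Creld2 and 0.312 for Ddit3. Under POVPC they were -2.91 for Trib3, -2.337 for Pycr1, -1.774 for Atf5, -1.46 for Vldlr and -1.143 for Aldh18a1. On the positive side they were 2.971 for Cth (KO means of 0.204 and 0.727 CPM), 1.258 for Sesn2, 1.18 for Nupr1, 0.77 for Creld2 and 0.593 for Syvn1.

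The response to POVPC differed in 11 genes in normoxia and 9 in hypoxia, against 16.2% and 9.37% of all tested genes. Leaving out 1 library at a time gave 6 to 15 in hypoxia. In normoxia the log2 differences were -2.814 for Cth (KO means of 0.331 and 0.204 CPM), -0.807 for Cebpb, -0.613 for Asns and -0.481 for P4hb, and 0.973 for Pycr1, 0.832 for Vldlr, 0.727 for Trib3, 0.592 for Atf5 and 0.585 for Ddit3. In hypoxia they were 0.706 for Hyou1, 0.638 for Sdf2l1, 0.628 for Trib3, 0.532 for Atf3 and 0.522 for Ppp1r15a, and the Sdf2l1 call was lost without any of 8 of the 12 libraries.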

How the results depend on the processing

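The repeats covered 137 changes: the called members with the 5 largest rises and 5 largest falls per comparison, and the 6 of lesions. Other changes given with an FDR were not among them. Of 2255 repeats, 2195 kept their direction and their side of the threshold. The call was lost in 59 and gained in 1 (Atf3 in lesions, by DESeq2), and none reversed. With a 2-fold minimum, the genes called numbered 9 for genotype under vehicle and normoxia, 11 under vehicle and hypoxia, 11 under POVPC and normoxia and 5 under POVPC and hypoxia. With that minimum they numbered 12 and 14 for hypoxia in WT cells under vehicle and POVPC, and 14 and 15 in KO cells. They numbered 2 and 0 for POVPC in WT normoxia and hypoxia, 0 and 0 in KO cells, 11 and 9 for the difference in the hypoxia change under vehicle and POVPC, and 1 and 0 for that in the POVPC change in normoxia and hypoxia. DESeq2 called 1 gene in lesions and 2 for POVPC in KO normoxia. Library size alone gave 0 and 1 for POVPC in KO normoxia and hypoxia, and no filter 1 in KO hypoxia. The compared groups alone gave 14 for POVPC in WT hypoxia and 0 in KO normoxia. Without the 3 smallest libraries POVPC in WT hypoxia gave 6 and the difference in the POVPC change in hypoxia 0, but that fit keeps 1 WT POVPC hypoxia library, assumed to vary like the other groups, so these counts say little about stability. The causes were not tested. Apart from DESeq2 in lesions, no share of all tested genes is given for these repeats, the 2-fold minimum included. The counts of these repeats therefore cannot set the stress genes apart from the rest.

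Leaving out each library gave 0 in lesions, and 24 to 27, 32 to 33, 30 to 32 and 27 to 29 for genotype (vehicle normoxia, vehicle hypoxia, POVPC normoxia, POVPC hypoxia). It gave 31 to 34 and 26 to 29 for hypoxia in WT and 26 to 28 and 25 to 28 in KO cells (vehicle, POVPC). It gave 12 to 14 and 14 to 24 for POVPC in WT and 0 to 3 and 1 to 2 in KO cells (normoxia, hypoxia), 23 to 28 and 16 to 19 for the difference in the hypoxia change (vehicle, POVPC), and 8 to 11 and 6 to 15 for that in the POVPC change (normoxia, hypoxia). For POVPC the extremes were without KO vehicle normoxia 3 (3 in KO normoxia) and without WT POVPC hypoxia 2 (14 in WT hypoxia). Of these fits, a share of all tested genes is given only for those without KO vehicle normoxia 3. The counts of the other fits cannot set the stress genes apart from the rest. Scaling by library size alone moved the median log2 change of all genes by over 0.1 in 7 comparisons, to -0.21 for hypoxia in WT cells under vehicle. With the replicate block, hypoxia in KO cells under POVPC gave 29 genes, against 29 without it and 28 with those groups fitted alone, and no count of calls moved by over 1.5 times.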
